A study of Mus musculus with 12 samples.

Results

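The 200 mRNAs with the fewest ribosome footprints for their mRNA level in RPL10 WT clones were described in Ba/F3 cells, a mouse lymphoid line that grows on interleukin-3. They were chosen by translation efficiency (TE), the log2 ratio of ribosome-protected fragments (RPF) to mRNA, each with a pseudocount of 1. Eligible genes had at least 10 normalized RPF counts and at least 50 normalized mRNA counts in each of the 3 WT clones and carried no symbol of the Zfp, Slc, Kif, Srsf, Ddx or Dhx families. Of 8508 eligible genes, the 200 with the lowest mean TE over clones 28, 29 and 36 were kept. Their WT values are therefore a description without a test, and only the R98S libraries were not used in the choice.

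The experiment asked how the R98S mutation of ribosomal protein RPL10, which is found in T-cell leukemia, changes what ribosomes translate. Cells of both genotypes carried a retroviral human RPL10 cDNA, WT or R98S, together with an shRNA that knocks down endogenous mouse Rpl10. Each clone was grown from a single cell, and footprinting and mRNA libraries were made from 3 R98S clones (11, 13 and 35) and 3 WT clones (28, 29 and 36), so the spread between clones includes differences between single founder cells and p-values measure that spread. All cells had received 100 μg/ml cycloheximide for 5 min, and footprints of 30 to 33 bases were sequenced.

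Libraries held from 3477723 to 10883086 reads for RPF and from 20576796 to 23136595 for mRNA, except the mRNA library of WT clone 28 with 6617457 reads. Mouse Rpl10 was listed at 4501, 2345 and 2230 normalized mRNA counts in WT clones 28, 29 and 36 and at 2905, 1449 and 2355 in R98S clones 11, 13 and 35; reads of the human cDNA that match the mouse gene cannot be told apart from it. Of the markers checked, all 3 interleukin-3 receptor chains were present, and their summed mRNA ranged from 42064 to 80899 normalized counts in WT and from 95080 to 117075 in R98S clones. Of 9 lymphoid markers only Cd79a, Cd79b and Ptprc reached a mean of 10, Pax5 and Rag1 were at 0 in every library, and 4 of 5 mast cell and basophil markers were present, with a sum of 20397 to 26588 in WT and 12240 to 15825 in R98S clones. None of the 3 T cell markers and 1 of 3 myeloid markers reached a mean of 10, while all 3 erythroid markers did, with a sum of 1590 to 3198 in WT and 1488 to 2117 in R98S clones. Fewer cells of a type and less RNA per cell cannot be told apart in such bulk libraries, and the part of these markers in the results was not tested.

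A ribosome protects a short stretch of the mRNA it is reading, so footprints on a coding sequence count ribosomes at work there. An mRNA can be abundant and poorly footprinted because few ribosomes reach its start codon, for example when short reading frames upstream capture them, or because the RNA is kept in the nucleus. The ratio also depends on how it is counted. In these files RPF were counted only within coding sequence, whereas mRNA was counted over whole exons, so a transcript with long untranslated regions has a lower ratio at the same ribosome density. Reads had to pass a mapping quality minimum of 10, which removes reads that match several places of the genome equally well.

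Sequence identity with other loci was more frequent among the members than among eligible genes, though most members lacked it over most of their coding sequence. Coding sequence of GENCODE gene models was read in windows of 30 bases, the length of a short footprint, and each window was searched on both strands of the GRCm38 chromosomes outside the gene's own locus. One such window is shown for each of 5 of the 20 least footprinted members. Each was the window with most copies elsewhere, or the one beside it within a single exon. All letters are capitals because the whole window is repeated elsewhere without a mismatch.
Tpt1: CAAAAAGTACATCAAAGACTACATGAAATC
Cox7a2l: CTGGGAAGAACAAAGTTCCAGAGCTGCAGA
Josd1: CCCCCACAAATCTACCATGAGAAGCAGCGC
Rps12: GACTATGGCAAAGAATCTCAGGCCAAGGAT
Ptp4a1: GTGAAGAACCTGGTTGCTGTATTGCTGTCC

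The Tpt1 window lies at chr14:75846364-75846393 on the plus strand, in exon 3 of 6, and recurs at 4 other places, all 4 annotated as processed pseudogenes. That of Cox7a2l, at chr17:83504111-83504140 on the minus strand in exon 2 of 4, recurs in 2 processed pseudogenes, and that of Josd1, at chr15:79686822-79686851 on the minus strand in exon 1 of 4, in 1. The Rps12 window, at chr10:23785244-23785273 on the minus strand in exon 5 of 5, recurs at 23 places, of which 21 overlap annotated pseudogenes. For Ptp4a1, at chr1:30944558-30944587 on the minus strand in exon 4 of 6, all 7 other copies overlap pseudogenes.

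Of the 199 members with a gene model, 61 (30.7%) had at least 50% of their counted coding windows elsewhere in the genome, against 6.59% of eligible genes and 2% of the 200 most footprinted mRNAs. Any shared window was found in 114 members (57.3%), against 30.3% of eligible genes. These shares describe gene models and were not used to choose the members, but genes of 1 family share sequence, so no test was made. Reads from repeated windows cannot be assigned to a single locus, so RPF and mRNA values of these 61 members are uncertain, and the part of the mapping filter in their low TE was not tested. Untranslated regions, where mRNA but not RPF was counted, were not searched for copies. The mRNA values of other members can therefore be uncertain too.

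Mean WT TE of the members ran from -7.21 to -3.98, with a median of -4.38, compared with -1.66 over all eligible genes. At the boundary, Dph3 (-3.99), Spire1 (-3.98) and 1110032A03Rik (-3.98) were the last 3 inside, and Btg1 (-3.98), Zkscan8 (-3.98) and D5Ertd579e (-3.97) the first 3 outside. The members were not rare mRNAs, but the choice itself kept out rare ones. A low TE together with the RPF minimum requires more mRNA than the minimum set for eligible genes. The lowest mean WT mRNA was 221 normalized counts among members and 57.8 among eligible genes. Members had a median of 414 normalized mRNA counts per kilobase of transcript in WT clones, against 312 for eligible genes. Their median of normalized RPF counts was 60.9, against 272. Both kinds of count are part of the ratio that chose the members, so these medians are a description. The median standard deviation of TE between WT clones was 0.45 log2 units for members, 0.39 for the 200 most footprinted mRNAs and 0.29 for eligible genes, and between R98S clones it was 0.30 for members and 0.20 for eligible genes.

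**Figure D1:**
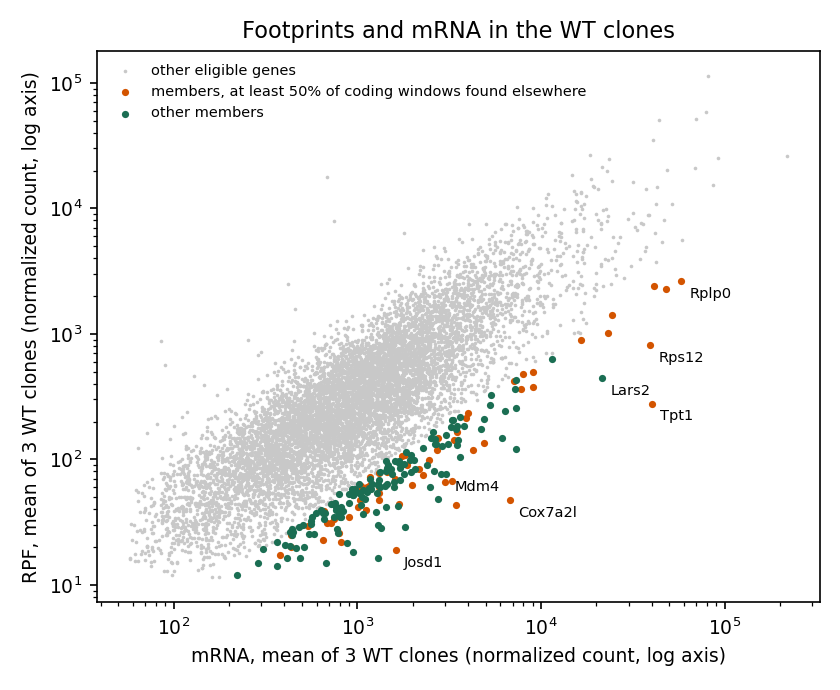
Mean normalized RPF count against mean normalized mRNA count over the 3 WT clones, both on log axes, for the 200 members and the other eligible genes (grey). The members form the lower edge of the cloud, and the 61 with at least 50% of their coding windows found elsewhere (orange) lie among the others (green), with Rplp0, Rps12 and Tpt1 at its right end.

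The lowest TE belonged to Tpt1, which encodes the abundant translationally controlled tumor protein. Its mRNA was 45866, 36939 and 37424 normalized counts in WT clones 28, 29 and 36, and its RPF were 193, 284 and 356, so TE was -7.21 ± 0.61 (SD, n = 3). The same gene had 56683, 47476 and 40177 mRNA counts and 566, 383 and 391 RPF counts in R98S clones 11, 13 and 35, a TE of -6.76 ± 0.17. All 6 clones were far below the eligible median, and all counted coding windows of Tpt1 have copies elsewhere.

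Cox7a2l, a factor for assembly of respiratory supercomplexes, followed with WT mRNA of 7251, 6582 and 6414 and WT RPF of 40.1, 51.0 and 50.1. Its TE was -7.14 ± 0.28 in WT and -7.08 ± 0.18 in R98S clones (SD, n = 3), the lowest of all eligible genes in R98S. Josd1, a deubiquitinase of the Josephin family, had 11.5, 18.7 and 26.4 RPF counts in WT and 17.6, 17.6 and 1.68 in R98S clones. The last of these values is worth 1 read. Its R98S TE was -6.21, -6.08 and -8.91, so clone 35 stood apart from the others.

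Among the 20 least footprinted members were other enzymes and assembly factors of many compartments. Ctdsp2, a small phosphatase of the RNA polymerase II tail, had a TE of -6.34 ± 0.37 in WT. Ier3ip1, a protein of the endoplasmic reticulum, was at -6.19 ± 0.39, and Coa5, which helps to assemble cytochrome c oxidase, at -5.85 ± 0.37. The ubiquitin-conjugating enzyme Ube2d2a was at -5.66 ± 0.94, the phosphatase Ptp4a1 (PRL-1) at -5.49 ± 0.39, the kinase Uhmk1 at -5.49 ± 0.61 and Synj2bp, a mitochondrial outer membrane protein, at -5.53 ± 0.30. Mdm4, an inhibitor of p53, was at -5.34 ± 0.24, and the RING protein Rnf11 and the zinc finger transcription factor Plag1 closed the list at -5.31 ± 0.63 and -5.27 ± 0.55 (all SD, n = 3 clones). The remaining genes of the 20 were Tmem170b, Smim3, Plgrkt, Dnajc27, Rps12 and the unnamed genes 1700025G04Rik and BC005537, all between -5.98 and -5.38.

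The transcripts of the members differed in build from those of most eligible genes. RPF were counted in coding sequence and mRNA over exons, so a low coding share lowers the ratio that chose the members. The coding shares given here therefore partly restate that choice. Their coding sequences were short, with a median of 305 codons against 458 in eligible genes, and their 3′ untranslated regions long, with a median of 1829 bases against 933. As a result coding sequence made up a median of 29.5% of the transcript in members, 54.6% in eligible genes and 71.1% in the 200 most footprinted mRNAs. The order was the same with the exons of all transcripts merged (19.0%, 33.4% and 45.0%) and with the longest transcript (27.1%, 50.1% and 68.5%). When eligible genes were split into 10 equal groups by coding share, members made up 8.61% of the lowest group and 0.236% of the highest, compared with 2.35% of all eligible genes. Coding sequences of members had a lower median GC content (48.8% against 52.7%), as did their 3′ untranslated regions (40.5% against 44.7%), whereas 5′ untranslated regions were richer in GC (68.6% against 65.0%). The letters ATTTA, the core of AU-rich instability elements, occurred at a median of 1.95 per kilobase of 3′ untranslated region in members, 1.34 in eligible genes and 0.136 in the most footprinted mRNAs, counted with overlaps on the transcript strand.

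Low coding share, copied coding windows or both were found in all but 49 of the 199 members with a model. A low coding share, taken as the lowest 25% of eligible genes or 36.5% and less, was found in 123 members (61.8%), of which 34 also had at least 50% of windows elsewhere. Another 27 members had shared windows alone. On the chosen transcript, the 49 members with neither (24.6%, against 70.7% of eligible genes) included Mdm4, March8, Cflar, Lars2, Rbm4b, Clk1 and Plgrkt. With merged exons the lowest 25% of eligible genes had a coding share of 21.9% or less. On that scale Mdm4 (10.3%), March8 (17.7%), Cflar (11.8%), Rbm4b (10.7%) and Plgrkt (11.6%) had a low coding share, and Lars2 (24.4%) did not.

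**Figure D2:**
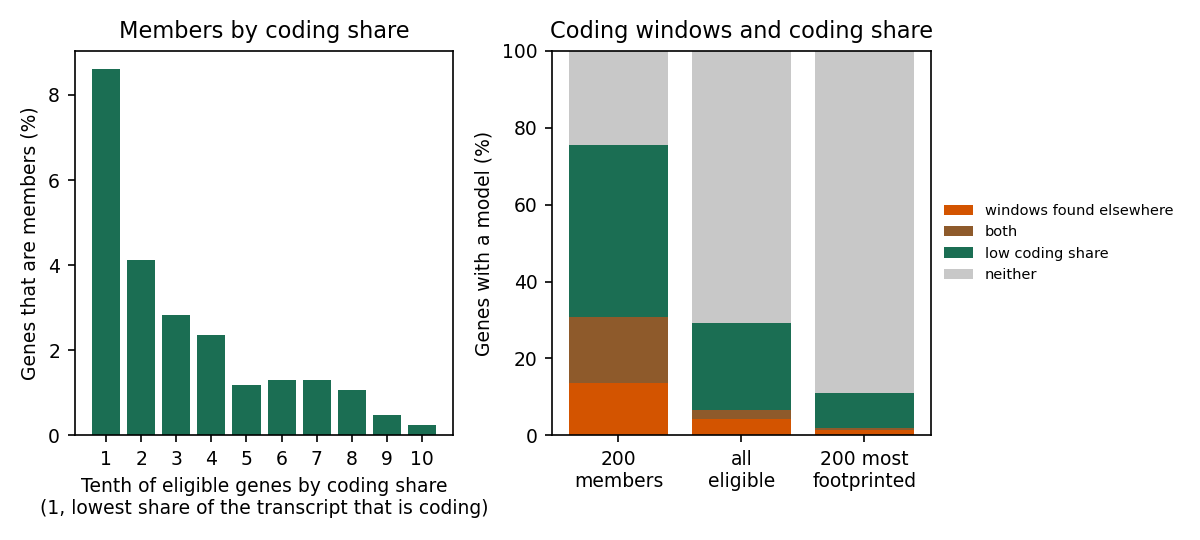
Left, the percent of genes that are members in 10 equal groups of eligible genes ordered by coding share of the transcript, falling from 8.61% to 0.236%. Right, the percent of genes with at least 50% of coding windows found elsewhere, with a coding share of 36.5% or less, with both or with neither, for the members, all eligible genes and the 200 most footprinted mRNAs; 24.6% of members and 89% of the most footprinted mRNAs had neither.

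TE was then computed per length, with RPF per counted coding base and mRNA per transcript base. Members kept a lower median, -2.62 against -0.57 for eligible genes, but only 87 of them were among the 200 lowest on this scale (84 with merged exons). The 200 genes lowest on this scale had a median coding share of 69.3%, above the 54.6% of eligible genes. The lowest members per length were Tpt1 (-5.85 ± 0.61), Cox7a2l (-5.42 ± 0.28) and Rps12 (-5.30 ± 0.55). After them came Mdm4 (-4.90 ± 0.24), the membrane ubiquitin ligase March8 (-4.72 ± 0.53), the caspase-8 inhibitor Cflar (-4.66 ± 0.08) and Lars2, the leucyl-tRNA synthetase of mitochondria (-4.61 ± 1.40). Cyb5r4, a cytochrome b5 reductase, the RNA-binding protein Rbm4b and Ppp1cc, a catalytic subunit of protein phosphatase 1, lay between -4.27 and -4.15. Several of these values depend on the gene model: with merged exons March8 was at -2.53 and Cflar at -1.87, while Tpt1 was at -4.82 and Cox7a2l at -5.03.

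Mdm4 had mRNA of 2790, 3293 and 3075 normalized counts in WT and 3467, 4324 and 2624 in R98S clones, with RPF of 58.3, 95.8 and 73.8 in WT and 61.2, 48.6 and 65.5 in R98S. Its RPF overlapped between genotypes, and its TE lay between -6.45 and -5.09 in the 6 clones. The RPF of Cflar were 29.6, 41.6 and 43.5 in WT and 35.1, 31.9 and 18.5 in R98S clones, again overlapping. Its TE was -5.10, -4.93 and -4.99 in WT and -5.85, -5.29 and -5.77 in R98S clones, lower in every R98S clone than in every WT clone, without passing the limma test for TE.

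Upstream ATG codons were more frequent in members. Among the 185 members with a 5′ untranslated region of at least 50 bases, 132 (71.4%) had at least 1 upstream ATG, against 54.7% of eligible genes and 36.1% of the most footprinted mRNAs. A reading frame wholly inside the 5′ untranslated region was present in 63.2% of members and 46.3% of eligible genes, and a frame that runs out of frame into the coding sequence in 25.95% and 17.32%. Since these regions were also longer in members (median 237 bases against 162), density was compared too, and its median was 0.541 upstream ATG per 100 bases in members, 0.314 in eligible genes and 0 in the most footprinted mRNAs. Short upstream frames of 6 members are shown, with start and stop codon in capitals. That of Amd1 is known to hold back ribosomes on its mRNA. The others resemble it only in being short, and whether they act on ribosomes was not tested.
Amd1: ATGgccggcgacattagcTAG
Azin1: ATGatagggggttccatctccTAA
Mdm4: ATGgagcggccgTAA
March8: ATGgaagtgtggattcctggtgtcTGA
Plag1: ATGggaaacagcagtgaaTAA
Bmi1: ATGctgaacgactttTAA

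The Amd1 frame, at chr10:40302155-40302175 on the minus strand, has 6 codons before the stop and ends 296 bases before the coding start of S-adenosylmethionine decarboxylase, an enzyme of polyamine synthesis. It is the only upstream ATG of that gene model. Azin1 encodes the antizyme inhibitor of the same pathway, and its frame lies at chr15:38514482-38514505 on the minus strand in a leader with 3 upstream ATG codons. The frame of Mdm4 lies at chr1:133025249-133025263 on the minus strand, that of March8 at chr6:116338404-116338430 on the plus strand, that of Plag1 at chr4:3912474-3912494 on the minus strand and that of the Polycomb protein Bmi1 at chr2:18677397-18677414 on the plus strand; all lie within 5′ untranslated exons. Footprints on upstream frames were not counted in these files. Azin1 had 213, 227 and 293 RPF counts in WT and 451, 342 and 322 in R98S clones, which did not overlap. Its mRNA level was 7522, 4697 and 6894 in WT and 7589, 6964 and 6846 in R98S, and its TE change did not pass the limma test across all genes. Low WT RPF favoured the choice of members, so the order of these RPF counts is a description. How often RPF did not overlap among all genes was not counted. For Amd1, RPF of 16.2, 40.6 and 21.1 in WT and 44.7, 31.01 and 3.36 in R98S clones overlapped, and the last value is worth 2 reads.

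The context of the main start codon did not set the members apart. A purine stood 3 bases before the ATG in 87.8% of members and 86.8% of eligible genes, and a G followed the ATG in 53.8% and 54.3%. The 4 members lowest in TE per length among those with under 50% shared windows all had the purine, shown in capitals with the ATG and the base after it.
Mdm4: ttcactgccAaaATGAcatcacat
March8: tcggaggctGggATGAgcatgcca
Cflar: gtggttctgAacATGGcccagagc
Lars2: ctctcctgaAgaATGGcatccact
These starts lie at chr1:133018843-133018866 (minus strand), chr6:116376759-116376782, chr1:58726425-58726448 and chr9:123371861-123371884 (plus strand).

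By function the members were diverse. Cytosolic ribosomal proteins were 10 of 80 eligible (12.5%, against 2.35% of all eligible genes): Rps12, Rps29, Rpl12, Rplp0, Rpsa and Rpl22l1 were the lowest, and Rplp1, Rplp0 and Rpsa were, with Rps12 and Tpt1, the 5 members with the most mRNA per kilobase. The median eligible ribosomal protein gene had 95.8% of its coding windows elsewhere, so their values are uncertain. Rplp0 had RPF of 2302, 2565 and 2994 in WT and 3412, 3451 and 3014 in R98S clones, with all R98S values above all WT values. Rplp1 had 2857, 1777 and 2558 against 3857, 4108 and 3317, also without overlap. In Rps12, the least footprinted of the 10, RPF were 757, 775 and 900 in WT and 959, 759 and 662 in R98S clones, and overlapped. None of the 10, Rplp0 and Rplp1 included, passed the limma threshold of 0.1 for RPF. Low WT RPF favoured the choice of members, so these orders are a description. None of the 75 eligible mitochondrial ribosomal proteins was a member.

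Genes for RNA processing with detained introns or poison exons, whose RNA is partly kept in the nucleus or degraded, were 4 of 39 (10.3%): the kinase Clk1, which phosphorylates splicing factors, with Luc7l2, Rsrp1 and Nktr. The list of stress response mRNAs with upstream frames held 2 of 19 (10.5%), Amd1 and Azin1, which are both polyamine genes. No other gene of that list was a member. Ubiquitin ligase families gave 8 of 191 (4.19%), among them Rnf11, March8, Rnf141, Trim39 and Fbxw2, and ubiquitin proteases 2 of 49 (4.08%), Josd1 and Usp12. Members were 4 of 120 Tmem genes (3.33%: Tmem170b, Tmem229b, Tmem189 and Tmem183a), 2 of 64 zinc fingers of other names (3.13%: Zbtb41 and Zbtb18), 2 of 74 chromatin regulators (2.70%: Pcgf3 and Bmi1), 1 of 50 DNA repair genes (2%: Mdm4) and 1 of 15 selenoproteins (6.67%: Sepw1). Unnamed genes gave 14 of 231 (6.06%), including BC005537, BC030336, D17Wsu92e, AW549877, D1Ertd622e and AU019823. No member belonged to the lists of immediate early genes (33 eligible), centrosome and cilium genes (63), nutrient and mTOR signalling (24), cytokine receptors and JAK-STAT (29), iron-regulated mRNAs (5) or histones (2), and no mitochondrially encoded gene was eligible.

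Of the members in these lists, Clk1, March8 and Usp12 passed the limma test for mRNA and BC030336 and A830010M20Rik that for RPF; no member of the ribosomal protein list passed either. Further families were noticed only after their values were seen. Polyamine genes gave 5 members of 9 eligible (Amd1, Azin1, Oaz2, Sms and Sat1), of which Amd1 and Sms have all counted windows elsewhere and Azin1 none. The Ptp4a phosphatases gave 2 of 3 (Ptp4a1 and Ptp4a2), ubiquitin-conjugating Ube2 enzymes 5 of 28 (Ube2d2a, Ube2v2, Ube2q2, Ube2f and Ube2d3), Zdhhc palmitoyltransferases 4 of 17 (Zdhhc21, Zdhhc2, Zdhhc3 and Zdhhc4), TRAF adaptors 2 of 10 (Traf6 and Traf3) and Polycomb group genes 3 of 16 (Pcgf3, Bmi1 and Rybp). Among these, the 3 lowest Zdhhc members had no shared coding window but a coding share of 9.07%, 32.5% and 12.8%.

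In the R98S clones the same mRNAs remained poorly footprinted. Of the 200 members, 140 (70%) were also among the 200 lowest by mean R98S TE and 196 among the lowest 850 of 8508. The 5 lowest in R98S were Cox7a2l, Josd1, Tpt1, Ccr2 and Ctdsp2. Ccr2, a chemokine receptor whose gene model carries 47 upstream ATG codons, was the member whose TE fell most in value: TE was -5.81, -4.80 and -4.70 in WT clones 28, 29 and 36 and -6.11, -6.79 and -6.32 in R98S clones 11, 13 and 35, without overlap and without passing the limma test.

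Median TE of the members was -4.75, -4.10 and -4.29 in WT clones 28, 29 and 36 and -4.09, -4.22 and -4.31 in R98S clones 11, 13 and 35. Clone 28 alone was low, and the other 5 clones overlapped. TE over all eligible genes was also most spread in clone 28, with a standard deviation of 1.24 against 0.965 to 1.05 in the other clones. The median change of the members from WT to R98S was 0.21 log2 units, against -0.001 over eligible genes, and it was 0.07 without WT clone 28. The WT values that chose the members are 1 side of this change, so it is a description.

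To reduce that dependence the 200 lowest eligible genes were chosen on 2 WT clones and read in the third. Eligibility still set level minimums in every WT clone, including the one left out, and none in R98S clones. The WT clone left out was therefore not read on fully equal terms with the R98S clones, and the values are a description. Chosen on clones 29 and 36, their median lay at -2.99 relative to the eligible median in clone 28, compared with -2.38, -2.53 and -2.64 in R98S clones 11, 13 and 35. Chosen on clones 28 and 36, they lay at -2.41 in clone 29 and at -2.44, -2.54 and -2.66 in the R98S clones. Chosen on clones 28 and 29, they lay at -2.53 in clone 36 and at -2.47, -2.50 and -2.61 in the R98S clones. Clone 28 was lower than every R98S clone, clone 29 was higher than every R98S clone and clone 36 was between them. Of the genes so chosen, 125, 142 and 136 were among the 200 lowest of the WT clone left out (28, 29 and 36), and 114 to 142 among the 200 lowest of single R98S clones.

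**Figure D3:**
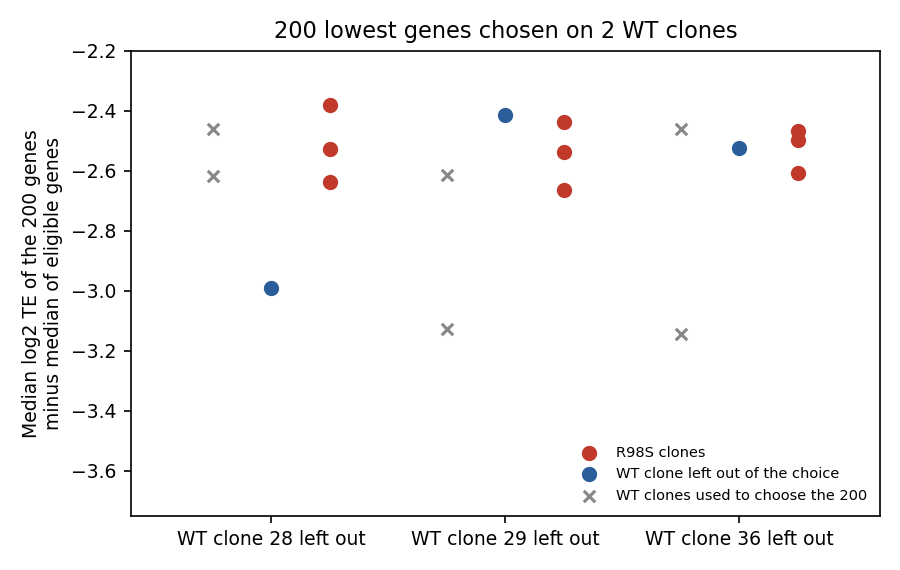
Median log2 TE, minus the median of all eligible genes, of 200 genes chosen as lowest on 2 WT clones, read in the WT clone left out (blue), in the R98S clones (red) and in the 2 WT clones used for the choice (grey crosses). Clone 29 at -2.41 and clone 36 at -2.53 lie near the R98S clones, between -2.66 and -2.44, and clone 28 lies lowest in each choice.

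No member passed the test for changed TE. Of 194 members that reached 10 normalized counts in every one of the 12 libraries, 0 were higher and 0 lower at a limma adjusted p under 0.1, where 0.0% of all 9043 genes tested were called higher and 0.0221% lower. At an unadjusted p under 0.05, 26 members were higher and 4 lower, where 376 and 334 of all 9043 genes were (7.85% in both directions together), and edgeR and DESeq2 also called 0 in each direction. The 3 R98S values lay above all 3 WT values for 22 members and below for 7, where 7.45% and 7.36% of all genes tested did so; the WT values that chose the members are part of these counts, so nothing is read from them or from the counts by p. With libraries weighted by their quality limma called 19 members higher and 5 lower, where it called 8.80% of all genes.

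**Figure D4:**
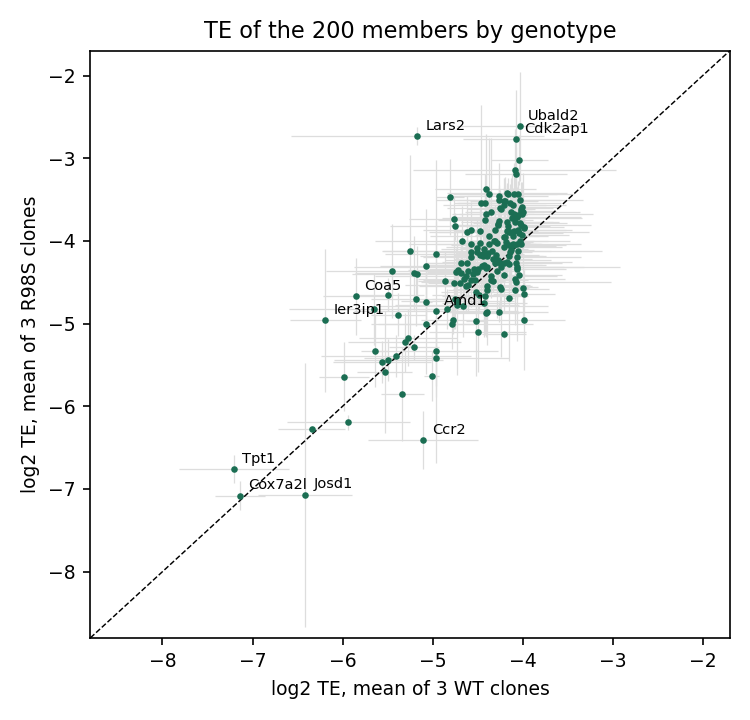
Mean log2 TE over the 3 R98S clones against the mean over the 3 WT clones for the 200 members; grey bars are 1 SD over 3 clones and the dashed line marks equal values. Of the 200 points 147 lie above the line, with Lars2, Ubald2 and Cdk2ap1 highest in R98S, and Ccr2 lies farthest below it.

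The members whose TE ranked highest in R98S were Ubald2 (rank 1471 of 8508), Lars2 (1267), Cdk2ap1 (1214), Pgap2 (860) and Lsm5 (723). Lars2 changed most, from TE of -6.22, -5.71 and -3.58 in WT to -2.86, -2.71 and -2.64 in R98S clones, and its mRNA differed while its footprints overlapped. Lars2 mRNA was 41164, 18423 and 5142 in WT clones 28, 29 and 36 and 3706, 2784 and 2850 in R98S clones, whereas its RPF were 552, 351 and 430 in WT and 511, 426 and 455 in R98S. The WT mRNA values were far apart, and all 3 exceeded the R98S values. Its TE change had a limma adjusted p of 0.56, and of 0.0098 without WT clone 36. The WT TE of Lars2 made it a member, and clone 36 held its highest WT value. Both p-values are therefore a description. Pgap2, which acts in the maturation of lipid anchors of membrane proteins, had RPF of 22.9, 34.4 and 29.0 in WT and 55.3, 61.2 and 48.7 in R98S clones. These RPF did not overlap, while its mRNA levels did, and its TE change of 1.02 did not pass the test. WT RPF are part of the ratio that chose the members, so this order is a description. Lsm5, a subunit of the ring that binds U6 RNA, had a TE of -5.39, -3.32 and -3.56 in WT and -2.59, -3.26 and -3.56 in R98S clones, so clone 28 lay far below the other 5 clones, and all its counted coding windows have copies elsewhere.

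For mRNA, all 200 members were tested by limma across 11344 genes, and 1 rose while 10 fell in R98S clones at an adjusted p under 0.1, where 3.03% of all genes tested rose and 3.91% fell. The median change of the members was -0.10, against 0.01 over all genes tested. The mRNA of WT clones is part of the ratio that chose the members. These counts and the mRNA p-values of single members, also with a clone left out, are therefore a description. Without R98S clone 11, R98S clone 13 or WT clone 36 the falls were 3, 3 and 4, where 1.71%, 1.59% and 1.67% of all genes fell. Without WT clone 28 the rises were 5, where 4.28% of all genes rose. The rise was that of Clk1, with mRNA of 3604, 2609 and 2436 in WT and 5183, 4525 and 4152 in R98S clones, a log2 change of 0.70 ± 0.19 (SE; limma adjusted p = 0.087). It passed the threshold in 1 of the 6 fits that leave out a clone. Its RPF were 133, 120 and 130 in WT and 693, 644 and 136 in R98S clones, high in clones 11 and 13 and near the WT level in clone 35.

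Among the falls, Bzrap1, an adaptor that binds RIM proteins, was largest. Its mRNA was 3314, 1594 and 885 in WT and 145, 148 and 232 in R98S clones, a log2 change of -3.28 ± 0.42 (SE; limma adjusted p = 0.0028), and its RPF fell alike, from 87.9, 110 and 98.8 to 4.79, 5.87 and 10.1 (log2 change -3.71 ± 0.36, limma adjusted p = 0.00060). Both calls held without any single clone. Lars2 followed with -2.35 ± 0.59 (limma adjusted p = 0.063), a call lost in 4 of the 6 fits that leave out a clone. Galnt11, which starts mucin-type glycosylation, had mRNA of 301, 380 and 409 in WT and 108, 138 and 150 in R98S clones, a log2 change of -1.46 ± 0.24 (limma adjusted p = 0.011) that held in all 6 of those fits. Smim3, a small membrane protein, fell by 1.12 on the log2 scale (limma adjusted p = 0.031), a call lost in 3 of the 6 fits that leave out a clone, while its RPF of 83.1, 166 and 194 in WT and 128, 150 and 131 in R98S clones overlapped. Usp12, a ubiquitin protease, fell by 1.03 (limma adjusted p = 0.011), and March8, with mRNA of 2565, 2561 and 2740 in WT and 1221, 1225 and 2128 in R98S clones, passed at a limma adjusted p of 0.082 and was lost in 4 of those 6 fits. The other 4 genes that passed changed by -0.83 to -0.67.

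For RPF, 6 members rose and 2 fell in R98S clones by limma across 9580 genes, where 3.13% of all genes tested rose and 4.62% fell. The RPF of WT clones are also part of the ratio that chose the members, so these counts and the p-values of single members are a description. Coa5 rose most, from 31.5, 56.2 and 56.7 in WT to 209, 194 and 77.2 in R98S clones, a log2 change of 1.63 ± 0.39 (SE; limma adjusted p = 0.046). Every R98S value exceeded every WT value, with clone 35 nearest to WT. The unnamed gene BC030336 went from 15.3, 15.6 and 18.4 to 53.7, 62.0 and 30.2 (log2 change 1.45 ± 0.37, limma adjusted p = 0.054). Cdk2ap1, a protein bound to the CDK2 kinase and a chromatin complex, went from 20.1, 29.2 and 25.04 to 100.0, 69.6 and 45.3 (1.44 ± 0.35, limma adjusted p = 0.047), and all its coding windows have copies elsewhere. Mier1, a transcriptional corepressor, went from 70.7, 109 and 112 to 258, 175 and 180 (1.07 ± 0.26, limma adjusted p = 0.047). Ptp4a1 and Ak4, an adenylate kinase named here after its values were seen, also passed, at limma adjusted p of 0.074 and 0.098.

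The number of RPF rises was 1 without WT clone 28 (1.53% of all genes rose), 2 without WT clone 36 (1.29%) and 0 without R98S clone 11 (0.804%) or 13 (0.647%). It was 10 without WT clone 29, where 2.87% of all genes rose, and 15 without R98S clone 35, where 5.32% did. The number of falls was 6 without R98S clone 35 (6.74% of all genes fell) and 1 without R98S clone 11 (2.07%), R98S clone 13 (1.71%), WT clone 29 (4.05%) or WT clone 36 (2.41%). The rises of Coa5 and Mier1 were lost in 3 of these 6 fits, those of Cdk2ap1 and BC030336 in 4 and that of Ptp4a1 in 5. The mRNA of Coa5, BC030336, Cdk2ap1 and Ptp4a1 overlapped between genotypes. That of Mier1 did not, with 1128, 1671 and 2019 in WT and 2565, 2771 and 2156 in R98S clones. The falls in RPF were those of Bzrap1 and of the unnamed gene A830010M20Rik, chosen after its values were seen, from 24.8, 46.9 and 40.9 to 12.2, 10.1 and 20.2 (limma adjusted p = 0.095). Of these 2, Bzrap1 alone also passed for mRNA.

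**Figure D5:**
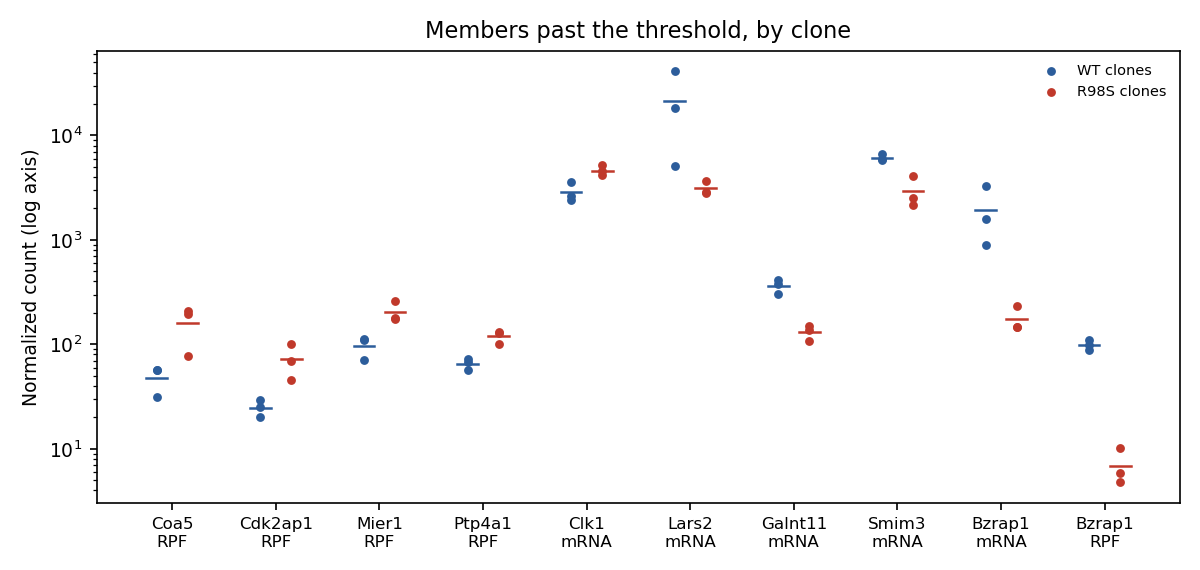
Normalized counts, on a log axis, of members past the limma threshold for RPF or mRNA in the 3 WT (blue) and 3 R98S (red) clones; points are clones and lines their means. RPF of Coa5, Cdk2ap1, Mier1 and Ptp4a1 were higher in all R98S than in all WT clones, and mRNA of Lars2, Galnt11, Smim3 and Bzrap1 lower.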

How the data were processed

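Ribosome footprints (RPF) and mRNA were sequenced from 3 R98S and 3 WT clones, and groups and clone numbers came from the sample titles. The authors deposited 1 table of signal values for each library kind, gene counts divided by DESeq2 size factors. They aligned reads to mm10 (GRCm38) with TopHat2 2.0.11 after filtering with Bowtie2, kept primary alignments with a mapping quality of at least 10, merged 3 technical replicates of each footprint library, and counted RPF in coding sequence without the first 15 and last 5 codons and mRNA over exons. The tables hold 10080 genes for RPF and 41255 for mRNA and were normalized separately, so TE has no absolute scale. In each library 100% of values above 0 were whole multiples of 1 read within a relative tolerance of 1e-06, so whole reads were recovered for edgeR and DESeq2 as alternatives. 1 mRNA read of WT clone 28 was worth 2.69 normalized counts, against 0.784 to 0.860 in other mRNA libraries.

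Changes were tested with limma 3.58.1 (R 4.3.3, trend) on log2(value + 1) for genes with a mean of at least 10, and TE as the ratio within each clone for genes with at least 10 in all 12 libraries, with Benjamini-Hochberg adjustment over all genes tested and a threshold of 0.1. Fold changes are on the log2(value + 1) scale. Both libraries of a clone come from the same clone, which pairs them; the correlation of their deviations from the genotype means was 0.20 to 0.69 (mean 0.52). Alternatives were edgeR 4.0.16, DESeq2 1.42.0, pseudocounts of 0.5 and 5, other filters, library weights, no pairing and each clone left out. On simulated data with a log2 change of 1.5, limma recovered 95.5% (mRNA, 11341 genes), 97% (RPF, 9566 genes) and 52.3% (TE, 9211 genes) of the changed genes. Both libraries of a clone were simulated independently, with a common dispersion for all genes of a library kind. The changed genes were drawn at random from all genes tested for TE. These shares therefore do not tell how often a change in members would be found.

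Gene models were those of GENCODE M21 on GRCm38; the annotation the authors counted on is not given in the sources used here. Of the RPF genes 9734 matched by symbol, 258 by a RefSeq synonym and 88 not at all; of the members 189, 10 and 1. The complete protein-coding transcript with the longest coding sequence stood for each gene. Sequences and copies of coding windows came from the GENCODE transcripts and the RefSeq copy of the GRCm38 chromosomes.

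The members and gene lists were chosen with earlier results of these data known. Named were the 20 members with the lowest WT TE; 3 genes on each side of the boundary; up to 4 rises and 4 falls for each of mRNA, RPF and TE, past the threshold and without overlap between genotypes; the 10 lowest by TE per length; the 5 with most mRNA per kilobase; up to 6 per gene list; and the 5 highest and 5 lowest in R98S.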

Additional observations from a re-analysis of the deposited data

How the results depend on the processing

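The overlap of 140 members with the 200 lowest in R98S was 132 to 148 with single R98S clones left out and 114 to 142 for lists chosen on 2 WT clones and read in 1 clone, while the median TE change of 0.21 was 0.07 to 0.32 with single clones left out and 0.40, -0.02 and -0.03 when genes chosen on the other 2 WT clones were compared with WT clone 28, 29 or 36. Counts of called members moved more. With library weights 19 members were higher and 38 lower in mRNA, 25 and 9 in RPF and 19 and 5 in TE, where 26.1%, 18.8% and 8.80% of all genes were called. DESeq2 called 4 members higher and 15 lower in mRNA, where 5.21% and 6.10% of all genes were, and 14 and 3 in RPF, where 4.90% and 6.53% were. With genes of any read in some library kept, 21260 genes were tested for mRNA, and 0 members and 1.52% of all genes were called higher. With a mean of at least 50 only 124 members were tested for RPF, and 3 were higher and 1 lower, where 2.74% and 4.32% of all genes were. Leaving out single clones gave 0 to 5 higher and 3 to 12 lower for mRNA, 0 to 15 and 1 to 6 for RPF, and 0 to 1 and 0 for TE, where 2.79% to 9.78%, 2.36% to 12.1% and 0% to 0.0332% of all genes were called in either direction; the 1 TE call came without WT clone 36. With no replicate block, that is without the pairing of both libraries of a clone, 0 members were called for TE in either direction, as with it. In an alternative added after the data were seen, members with at least 50% shared windows were left out, which left 139. Of these, 3 were higher and 2 lower in RPF, where 3.13% and 4.62% of all genes tested were. In mRNA, 1 was higher and 9 lower, where 3.03% and 3.91% of all genes tested were. The median coding share was 19.0% with merged exons, and 69.3% for the 200 genes lowest by TE per length. The causes of these shifts were not tested.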
